A study of Mus musculus with 4 samples.

Results

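The genes described are 10 members of the AP-1 and immediate early group: Fos, Fosb, Fosl2, Jun, Junb, Jund, Atf3, Egr1, Ier2 and Klf6. They were chosen by name. Their loci were taken as the GRCm38 gene body and the 10000 bp upstream, and peaks of open chromatin that overlapped a locus were its members: 30 of the 93513 peaks in the table, 10 at promoters and 20 elsewhere, with 0.233% of all counts. Single-cell ATAC-seq, which counts cuts of the Tn5 transposase in accessible DNA, was applied to LT-HSCs, the long-term stem cells of the blood, sorted from bone marrow of C57BL/6JRj mice. The table analyzed is the one named in the labels of 2 samples of old mice, aged 22 to 28 months: LT-HSCs high for the surface protein CLCA3A1 (CLCA3A1high) and LT-HSCs low for it (CLCA3A1low). Both samples shared the strain, the age range and the LT-HSC gate (LSK CD34neg CD135neg), no genetic change or drug is labelled, and each was a pool of 2500 cells from each of 4 mice. The series also holds 1 sample of young mice (3 to 4 months) and a further 1 of old mice (22 to 28 months), which are not analyzed here. Cell barcodes in the table ended in 1 or 2, and no label ties an ending to a sample, so the values are given for barcode set 1 and barcode set 2 without a group name. Neither set has a replicate, cells are not replicates, and no test was made.

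AP-1 is a transcription factor made of pairs of proteins from the FOS, JUN and ATF families, which join through leucine zippers and bind a short palindromic DNA word. The genes of many of these proteins are immediate early genes, which are transcribed within minutes of a growth factor, cytokine or stress signal from factors that the cell already holds, such as SRF with its ETS partners and CREB. Egr1, Ier2 and Klf6 answer to the same kind of signal. In blood stem cells these genes are known for their link to quiescence and activation, and also as genes that respond to tissue dissociation and sorting.

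The table held 818 cells in set 1 and 636 in set 2, with no barcode in common, and 13050952 and 9820094 counts. The median cell had 13358.5 and 12755 counts. For shares of open cells, each cell was thinned at random to 4899 counts, which left 749 and 560 cells. Levels are counts per 1000000 counts of a set (CPM). All intervals are exact 95% intervals. They cover counting error only and are too narrow, because a fragment has 2 ends and 88.7% of the non-zero values were even. Of 10 LT-HSC markers, 9 had peaks and Ly6a had none, and their promoter peaks summed to 364 and 335 CPM in sets 1 and 2. The same sums were 29.7 and 39.3 CPM for 4 T cell markers, 83.6 and 64.8 for 4 erythroid markers, 44.1 and 43.1 for 4 granulocyte and monocyte markers, and 30.6 and 38.2 for 3 non-blood markers. Among the markers of other cells, the B cell marker Ms4a1, the T cell markers Cd3e and Cd8a and the liver marker Alb had no peak, and the T cell sum was that of Cd3d alone. The sums above cover different numbers of genes, so they do not rank the lists. The LT-HSC sum came mostly from Mecom, Meis1 and Kit (104.7, 74.2 and 68.6 CPM in set 1). Per gene, with 0 for a gene without a promoter peak, the median promoter level of both sets together was 21.1 CPM for LT-HSC markers. It was 17.99 for erythroid, 4.63 for non-blood, 1.92 for granulocyte and monocyte, and 0 for T cell markers. At the whole locus, Slamf1 and Epor were over 1.5-fold higher in set 1 and Hbb-bt in set 2. The part of these cells in the results below was not tested.

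All 10 genes had a single, very wide promoter peak. Peaks counted as promoter peaks when they came within 1000 bp of an annotated coding start. The 10 peaks were 5100 to 12085 bp wide, with a median of 8988.5 bp, whereas the median of all 16788 promoter peaks was 1517 bp and only 1.95% of them reached 5000 bp. The narrowest, that of Atf3, was wider than 98.1% of all promoter peaks, and the widest, that of Klf6, was wider than 99.9%. In 8 of the 10 genes the peak covered the entire gene body and went on beyond its end. A promoter peak enclosed the gene body in 1.51% of 15393 genes with such a peak, and in 6.51% of the 3533 genes no longer than the longest of these 8 (8913 bp). The 8 members were among these, but the limit was taken from them, so their share cannot be set against the 6.51%. In these genes, promoter and gene body therefore could not be told apart, since the table gives 1 value per peak and cell. Fosl2 and Atf3, the longest genes of the group, were the exceptions.

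The promoter peaks were open, that is had at least 1 count, in a median of 51.3% of thinned cells of set 1 and 52.0% of set 2. The corresponding medians were 8.95% and 8.75% over all promoter peaks and 28.3% and 28.0% over the 327 promoter peaks of 5000 bp or more. Wide peaks collect more counts, so levels between genes are compared per kilobase. The median member promoter had 22.3 CPM per kb, compared with 14.2 for all promoter peaks and 14.3 for those of 5000 bp or more. Jun was at the top in both sets, with 32.5 and 31.1 CPM per kb. Egr1 followed with 29.2 and 23.7, though in set 2 its interval overlapped that of Jund. Jund, Fosl2, Fosb, Ier2, Fos and Junb lay between 19.6 and 24.8 in set 1 and between 19.9 and 23.1 in set 2, and many neighbours in that order had overlapping intervals. Klf6 came next with 15.4 and 16.2, and Atf3 was last with 11.03 and 8.89, each apart from its neighbours beyond the intervals. An open cell carried a median over the 10 promoters of 5.05 and 4.94 counts without thinning, compared with 2.46 and 2.51 over all promoter peaks and 3.41 and 3.52 over those of 5000 bp or more.

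**Figure D1:**
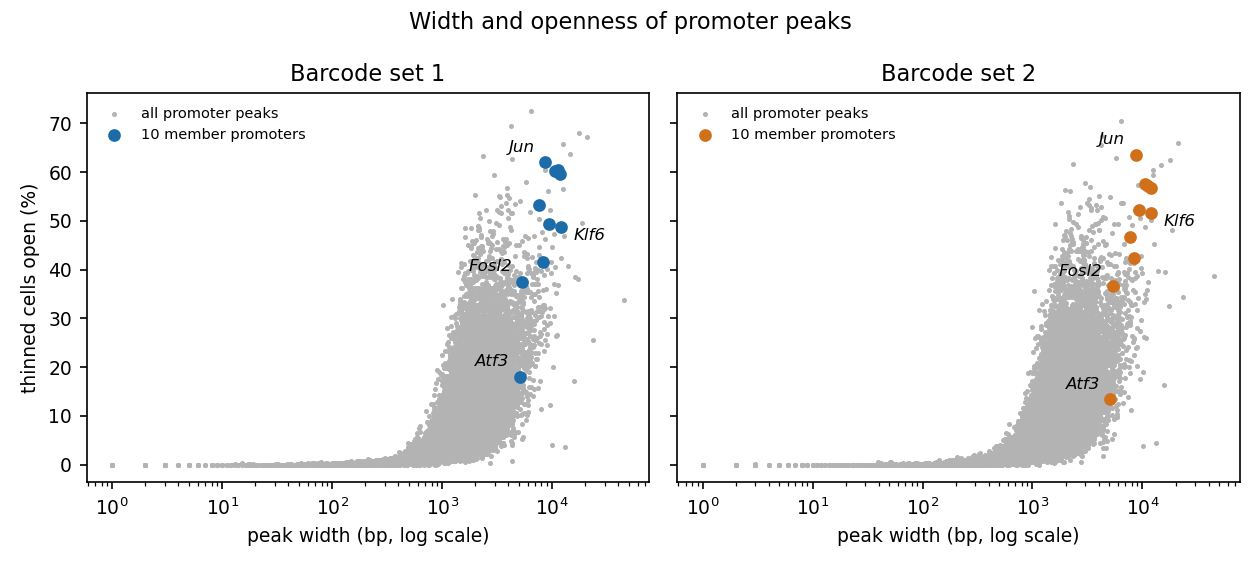
Width of each promoter peak (x axis, bp, log scale) against the share of thinned cells in which it was open (y axis, %), with barcode set 1 on the left and set 2 on the right. Grey points are all promoter peaks and coloured points the 10 members, which lie at the right edge of the cloud, and of which Atf3 (18.02% and 13.4%) is far below the other members.

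None of the 10 promoters differed over 1.5-fold between the barcode sets. Over all promoter peaks with at least 20 counts, 11.3% were past 1.5-fold, and over the 327 of 5000 bp or more, which hold more counts, 3.36% were. At the whole locus the count was also 0 of 10 (7.94% of all protein-coding loci). Ratios are log2 of set 1 over set 2, each CPM raised by 1, whereas their intervals are computed without that 1. The ratios ranged from -0.15 for Junb to 0.31 for Atf3, with a median of 0.083 over the 10 promoters and of 0.0088 over all promoter peaks. Counting intervals lay above 0 for 5 promoters (Fosb, Fosl2, Jund, Atf3 and Egr1), below 0 for Junb, and included 0 for Fos, Jun, Ier2 and Klf6. Over all promoter peaks with at least 20 counts, 20.1% had an interval above 0 and 18.2% below 0, and over those of 5000 bp or more 21.1% and 33.3%, so intervals this narrow often leave out 0. With open peaks scored as 1 in each cell whatever their count, the ratios of Fosl2, Jund and Jun turned to -0.015, -0.0063 and -0.013, and that of Klf6 to 0.066. Summed over the 10 promoters, the sets had 2021 and 1922 CPM, a log2 ratio of 0.073 (0.046 to 0.100), which was 0.032 with open peaks scored as 1 and 0.134 without the 57 cells of over 3 times the median counts.

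**Figure D2:**
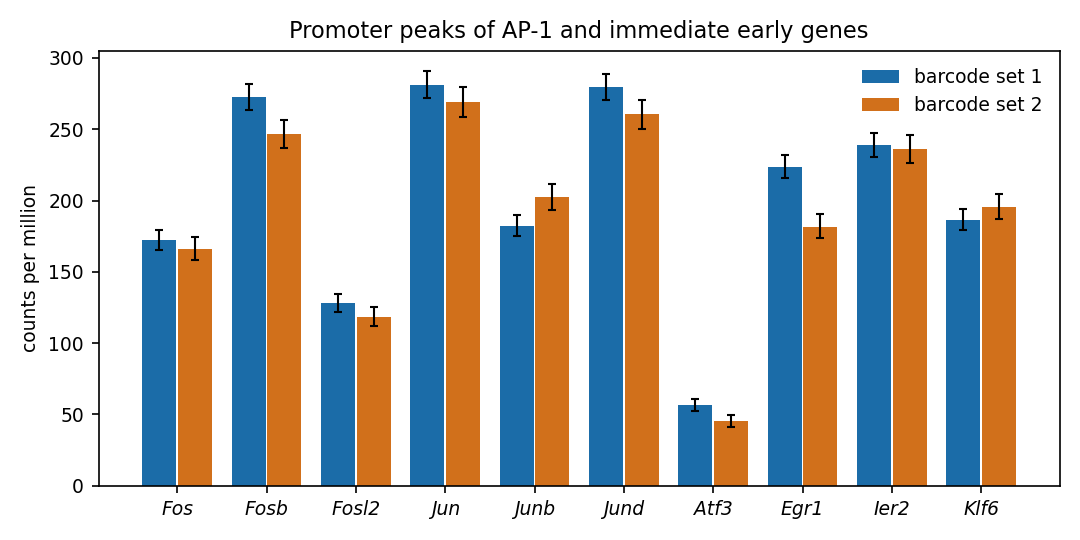
CPM (y axis) in the promoter peak of each of the 10 genes (x axis), in barcode set 1 (blue) and set 2 (orange). Bars start at 0 and error bars are exact 95% Poisson intervals, which cover counting error only. Egr1 (223.6 and 181.8 CPM) has the widest gap between sets, and Atf3 (56.2 and 45.3) the lowest bars.

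The remaining 20 peaks of these loci were small, with a median of 5.62 CPM, and 17 of them had at least 20 counts. Of these 17, 6 (35.3%) were past 1.5-fold, close to the 34.9% of all 63505 non-promoter peaks tested, so the count says nothing particular of these genes. By direction, 2 were higher in set 1 (17% of all non-promoter peaks) and 4 in set 2 (17.9%). The summed level of the 20 peaks was 336 and 362 CPM, a log2 ratio of -0.11 (-0.17 to -0.044), which was -0.035 without the 57 deepest cells. The sums of promoters and of other peaks thus leaned to opposite sides, by amounts well under 1.5-fold. By gene this was mixed. The other peaks of Fosl2 (0.91), Egr1 (0.10) and Junb (-0.056) leaned with their promoters, and those of Fos, Fosb, Jund, Atf3 and Ier2 against them.

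**Figure D3:**
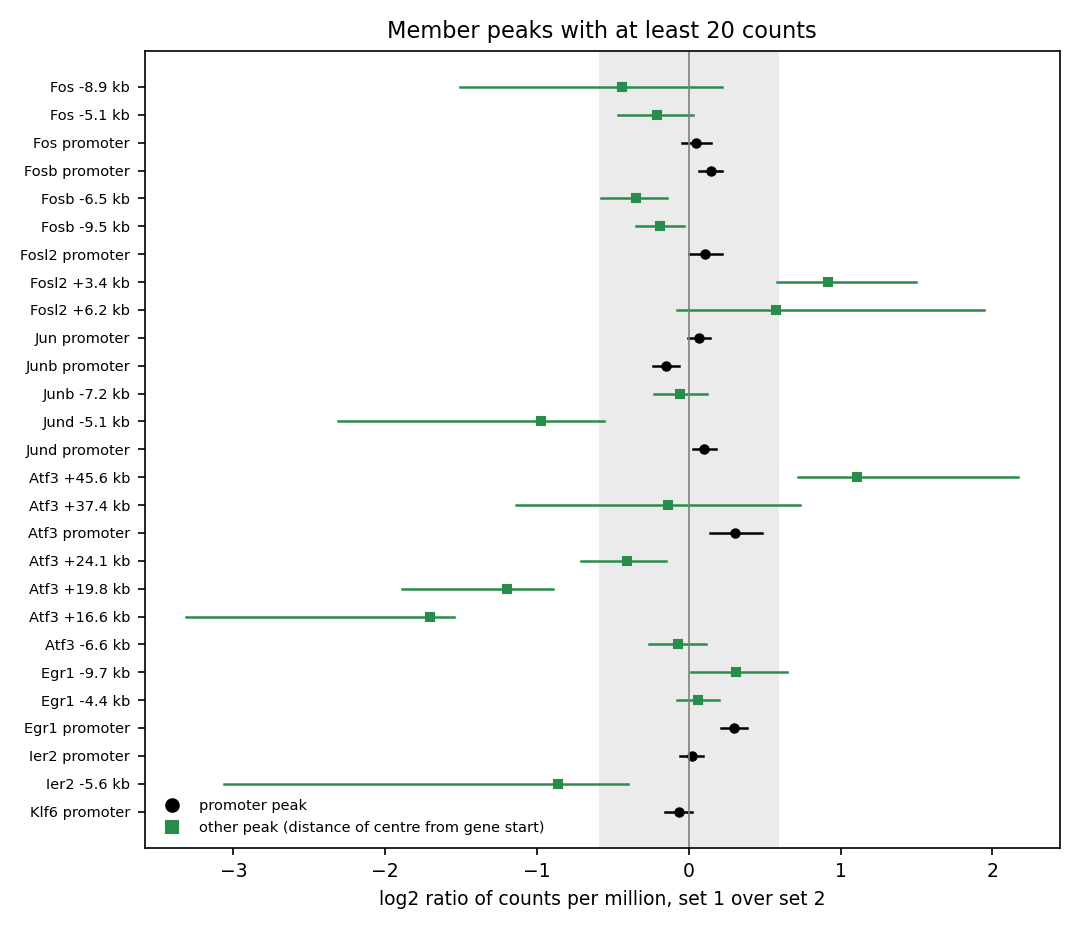
Log2 ratio of CPM, set 1 over set 2 (x axis), for the 27 member peaks with at least 20 counts (rows). Circles are promoter peaks and squares other peaks, labelled with the distance of their centre from the gene start in kb. Lines are 95% counting intervals and the grey band marks 1.5-fold. All 10 circles lie within the band and 6 of the 17 squares lie outside it.

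DNA words known from these genes were searched on both strands of the peaks in the GRCm38 genome of RefSeq: the AP-1 word (TGACTCA or TGAGTCA), the CRE bound by CREB and ATF proteins (TGACGTCA), the CArG box of SRF (CC, then 6 letters A or T, then GG), the EGR word GCGTGGGCG, the ETS word CCGGAAGT and the PU.1 word GAGGAAGT, the last chosen after the data were seen. The AP-1 word was in 9 of the 10 promoter peaks, compared with 19.4% of all promoter peaks and 63.6% of those of 5000 bp or more. Per kilobase its density was 0.177, near the 0.170 of the latter. The CArG box was in 5 of 10, compared with 6.89% and 29.4%, and its density of 0.155 per kb exceeded the 0.043 of all promoter peaks and the 0.057 of wide ones. The 5 were Fos, Fosb, Junb, Egr1 and Klf6. CRE, EGR and ETS words were in 2 of 10 each (4.61%, 3.29% and 9.54% of all promoter peaks, 12.8%, 6.42% and 14.98% of wide ones). The PU.1 word was in 5 of 10, compared with 13.3% of all and 43.4% of wide promoter peaks. In the RefSeq promoter table (250 bases before to 50 after a start), 8 members were found, Egr1 and Ier2 were not, and none of the 8 windows held any of these words, which are in 0.61% to 5.20% of the 32851 windows of that table. Only 6 of the 8 windows cover a coding start used here, since the starts of Fosl2 and Jund differ between the annotations. Words near a start were found in the peaks of Fosl2, Jund, Ier2 and Egr1, for which no window at the start used was searched. A match is a string of letters, not a bound site. Positions below are counted from the nearest annotated coding start, negative when upstream.

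Fos, Fosb and Fosl2 encode FOS proteins, which bind DNA only when paired with a JUN protein. Fos (chr12:85473890-85477273, plus strand) had its promoter peak at chr12:85471773-85480105, with 172.0 CPM in set 1 and 166.1 in set 2. It was open in 41.7% and 42.3% of thinned cells, so the sets hardly differed in either measure, with a log2 ratio of 0.050 (-0.042 to 0.143) that was 0.15 without the 57 deepest cells. Fosb (chr7:19302696-19310051, minus strand) had 272.7 and 246.6 CPM at chr7:19299141-19310985, a log2 ratio of 0.14 (0.070 to 0.220), and was open in 59.5% and 56.8% of cells. With open peaks scored as 1 this ratio was 0.030. Fosl2 (chr5:32135801-32157842, plus strand), which encodes FRA2, had 128.0 and 118.6 CPM at chr5:32132406-32137751, a peak that ends in the gene, and was open in 37.5% and 36.6%. The CArG boxes ahead of Fos and Fosb are shown with 30 bases on either side, the box in capitals, because both lie closely ahead of the start. The Fos window holds the box of the serum response element, the element through which growth factors are known to switch this gene on.
Fos, box at -309, chr12:85473551-85473620, plus strand: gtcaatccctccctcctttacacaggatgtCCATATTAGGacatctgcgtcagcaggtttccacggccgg
Fosb, box at -266, chr7:19310278-19310347, minus strand: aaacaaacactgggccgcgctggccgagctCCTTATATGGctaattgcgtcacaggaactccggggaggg
The boxes differ in their A and T letters. The other peak with the most counts at Fos lay upstream (chr12:85468051-85469558), with 22.3 and 25.97 CPM, and that of Fosb (chr7:19318359-19320806) had 53.8 and 61.4 CPM, a log2 ratio of -0.19 (-0.35 to -0.032). A further Fosb peak, at chr7:19315683-19317373, had 27.3 and 35.0 CPM and 2 AP-1 words. At Fosl2, a peak at chr5:32138284-32140125, within the transcript and just downstream of the promoter peak, had 152 counts in set 1 and 56 in set 2, or 11.6 and 5.70 CPM. Its log2 ratio of 0.92 (0.58 to 1.499) was past 1.5-fold, and it was open in 4.27% and 2.32% of thinned cells.

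Jun, Junb and Jund encode JUN proteins, which pair with FOS proteins or among themselves. JUNB is known as a brake on stem cell proliferation in blood, and JUND as the more steadily expressed of the family. Jun (chr4:95049034-95052222, minus strand) had no peak in its locus but the promoter peak, chr4:95046377-95055030, with 281.3 and 268.9 CPM. It was open in 62.1% and 63.6% of thinned cells, the highest share among the 10 genes in both sets. Junb (chr8:84974484-84978718, minus strand) had 182.3 and 202.2 CPM at chr8:84973821-84983143 and was open in 49.4% and 52.3%. It was the member promoter with an interval below 0, at -0.15 (-0.24 to -0.063), and at -0.060 with open peaks scored as 1. Jund (chr8:70698949-70700616, plus strand) had 279.6 and 260.5 CPM at chr8:70694919-70706175 and was open in 60.5% and 57.1%. Its peak also covers the start of Iqcn, and part of its counts may belong to that gene. Peaks of other members overlap further annotated genes, though no coding start of another gene. At promoters these were Prdx2 (Junb), Gm12703 and Junos (Jun), Gm26664 (Ier2), Gm26802 (Fosb) and Gm10463 (Fosl2). The other peaks with the most counts at Fosb and Atf3 overlap D830036C21Rik and D730003I15Rik. Without the deepest cells the log2 ratio of the Jund promoter was 0.27, compared with 0.10 for all cells. The Junb locus is shown because it held CArG boxes on both sides of the gene start and 3 AP-1 words in a window of 161 bases of its upstream peak (words in capitals).
Junb, CArG box at -1450, chr8:84980129-84980198, minus strand: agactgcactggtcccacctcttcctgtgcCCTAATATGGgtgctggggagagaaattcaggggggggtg
Junb, CArG box at 2085, chr8:84976594-84976663, minus strand: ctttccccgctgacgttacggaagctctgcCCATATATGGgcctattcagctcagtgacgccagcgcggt
Junb, AP-1 words from -7039 to -6945, chr8:84985627-84985787, minus strand: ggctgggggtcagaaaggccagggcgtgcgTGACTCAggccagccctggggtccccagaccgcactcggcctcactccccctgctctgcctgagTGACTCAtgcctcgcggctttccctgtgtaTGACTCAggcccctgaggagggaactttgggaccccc
That upstream peak (chr8:84985046-84986837) held a further AP-1 word and was open in 14.95% and 16.4% of thinned cells, with 47.0 and 48.9 CPM. Among all non-promoter peaks, 15.2% held an AP-1 word, compared with 7 of the 20 at the member loci, which are wider (median 913 and 479 bp). The density was 0.52 per kb in the 20 peaks and 0.29 in all non-promoter peaks. The Jund peak with the most counts outside the promoter, chr8:70693498-70694169, had 18 and 36 counts and a log2 ratio of -0.97 (-2.31 to -0.56). Without the deepest cells it had 16 and 20 counts and a ratio of -0.44, no longer past 1.5-fold, and the same value of -0.44 with a pseudocount of 5 CPM.

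Atf3 encodes a stress-induced partner of JUN proteins that is known mostly as a repressor. It was the exception in the group. Its gene (chr1:191170296-191218039, minus strand) spans 47744 bp with 2 coding starts, and only the downstream start was in a promoter peak, at chr1:191182217-191187316. This peak had 56.2 CPM (52.2 to 60.5) in set 1 and 45.3 CPM (41.2 to 49.7) in set 2, a log2 ratio of 0.31 (0.14 to 0.48). It was open in 18.02% and 13.4% of thinned cells, more than 80.7% and 67.9% of all promoter peaks, while each of the other 9 members exceeded at least 98.2%. Most counts of the locus (59.8%) lay in its 6 other peaks, which together had 69.9 and 85.6 CPM, a log2 ratio of -0.29 (-0.43 to -0.16), opposite to the promoter. The peak with the most counts among them lay upstream of the first start (chr1:191223700-191225502) and hardly differed, with 40.6 and 42.8 CPM. The 3 peaks in the intron between the 2 starts were lower in set 1. The one nearest the promoter (chr1:191193414-191194530) had 16.3 and 22.0 CPM, a log2 ratio of -0.41 (-0.71 to -0.15). Upstream of it, a peak at chr1:191197864-191198568 had 53 and 104 counts, or 4.06 and 10.6 CPM, a log2 ratio of -1.20 (-1.89 to -0.89), and was open in 1.74% and 4.64% of thinned cells. Next to it, a peak at chr1:191201201-191201655 had 15 and 59 counts, a log2 ratio of -1.71 (-3.31 to -1.55). Without the deepest cells this was -1.34. This peak and the one nearest the promoter were named after their values were seen. A peak over an exon close to the gene's 3' end (chr1:191171903-191172908) went the other way, with 78 and 22 counts and a log2 ratio of 1.11 (0.72 to 2.17). With a pseudocount of 5 CPM the ratios of these last 3 peaks were -0.78, -0.84 and 0.60. The central 300 bases of the intron peaks past 1.5-fold are shown because they had the largest set differences with more counts in set 2 in the group. They hold none of the words searched, hence no capitals.
Atf3, intron peak with 53 and 104 counts, chr1:191198067-191198366, minus strand: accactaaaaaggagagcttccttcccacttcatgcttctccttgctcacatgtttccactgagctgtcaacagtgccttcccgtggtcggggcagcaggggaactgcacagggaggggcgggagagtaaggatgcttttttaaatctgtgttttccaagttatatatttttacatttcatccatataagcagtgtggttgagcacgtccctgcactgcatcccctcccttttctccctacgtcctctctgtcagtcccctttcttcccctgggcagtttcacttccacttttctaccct
Atf3, intron peak with 15 and 59 counts, chr1:191201279-191201578, minus strand: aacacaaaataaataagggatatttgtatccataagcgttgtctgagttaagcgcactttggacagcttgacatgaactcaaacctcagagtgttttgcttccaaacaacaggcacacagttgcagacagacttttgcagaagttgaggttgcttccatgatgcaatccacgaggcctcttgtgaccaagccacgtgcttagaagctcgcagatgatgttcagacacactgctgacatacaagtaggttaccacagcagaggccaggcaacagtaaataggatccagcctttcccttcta

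**Figure D4:**
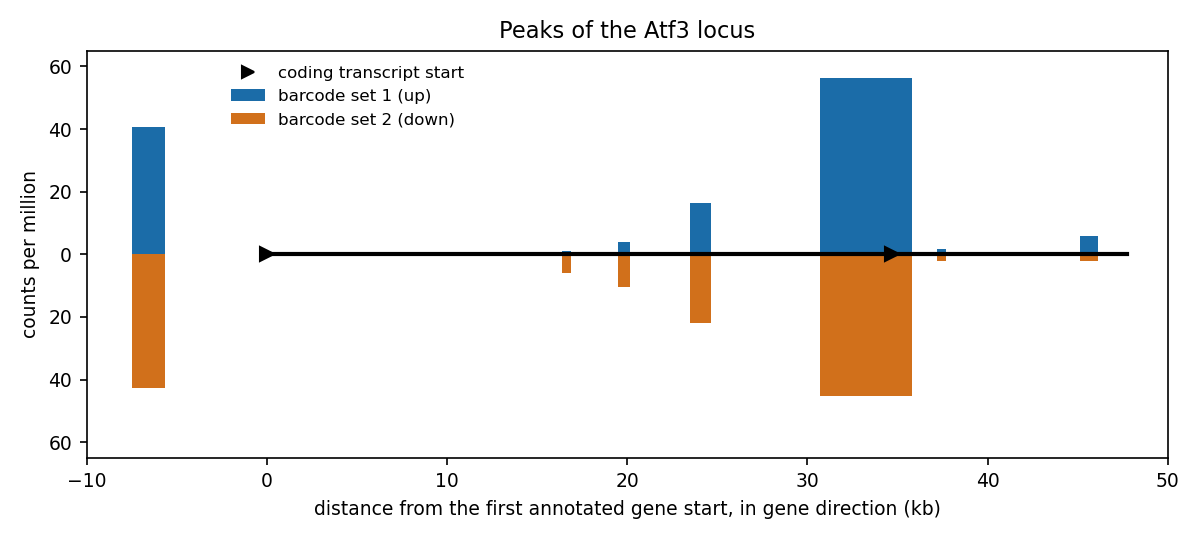
CPM (y axis) of the 7 peaks of the Atf3 locus, against distance from the first annotated gene start in the direction of transcription (x axis, kb), with barcode set 1 drawn upward and set 2 downward. Bar width is peak width (at least 0.5 kb), the black line is the gene and arrowheads are coding starts. The intron peaks to the left of the promoter peak are taller in set 2 and the promoter peak is taller in set 1.

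Klf6 and Ier2 do not encode AP-1 proteins. KLF6 is a zinc finger factor that binds GC-rich DNA, and Ier2 encodes a small, short-lived nuclear protein. Klf6 (chr13:5861482-5870394, plus strand) had no peak but the promoter peak, chr13:5859792-5871876, with 186.5 and 195.5 CPM, a log2 ratio of -0.068 (-0.16 to 0.019). It was open in 48.7% and 51.6% of cells. Ier2 (chr8:84661331-84662852, minus strand) had the most even promoter of the group, with 239.1 and 236.1 CPM at chr8:84655482-84666040 and a log2 ratio of 0.018 (-0.060 to 0.096). It was open in 60.2% and 57.5% of cells. Klf6 held 4 CArG boxes, the most among these peaks after the 5 of Egr1, and 1 of them lay close to an AP-1 word. Ier2 held a CRE just ahead of its start, as did Jund at -214. These windows are shown with the words in capitals.
Klf6, CArG box at 1987, chr13:5863439-5863508, plus strand: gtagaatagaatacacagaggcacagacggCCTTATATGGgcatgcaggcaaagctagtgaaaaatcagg
Klf6, CArG box at 2208 and AP-1 word at 2279, chr13:5863660-5863797, plus strand: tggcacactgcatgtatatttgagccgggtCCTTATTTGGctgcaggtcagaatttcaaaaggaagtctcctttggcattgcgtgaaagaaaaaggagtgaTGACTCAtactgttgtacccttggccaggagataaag
Ier2, CRE at -45, chr8:84662860-84662927, minus strand: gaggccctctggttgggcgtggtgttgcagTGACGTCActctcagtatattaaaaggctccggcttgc
Both Klf6 windows lie outside its annotated exons. The single other peak of the Ier2 locus had 8 and 19 counts, a log2 ratio of -0.86 (-3.06 to -0.40). It fell within 1.5-fold without the deepest cells (6 and 7 counts, -0.23) and with a pseudocount of 5 CPM (-0.31).

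Egr1 encodes a zinc finger factor that is induced with Fos and is known to hold LT-HSCs in quiescence and in the niche. Of the 10 promoters its level differed most between the sets relative to its counting error. Its peak had 223.6 CPM (215.5 to 231.8) in set 1 and 181.8 CPM (173.4 to 190.4) in set 2, a log2 ratio of 0.30 (0.21 to 0.38). It was open in 53.3% (49.6 to 56.9) and 46.8% (42.6 to 51.0) of thinned cells. With open peaks scored as 1 the ratio was 0.13. The gene lies at 34859823 to 34864984 on chromosome 18, plus strand, and its promoter peak at 34859103 to 34866763. All 5 CArG boxes of this peak lay between -407 and -83, ahead of the downstream coding start, a stretch known to hold a cluster of serum response elements. The other peak of the locus with the most counts, 34853730 to 34857084, was the widest and most open of the 20 non-promoter peaks. It had 78.5 and 75.5 CPM and was open in 28.0% and 27.1% of cells, with a log2 ratio of 0.057 (-0.080 to 0.196). A smaller peak farther upstream, 34849290 to 34850874, had 17.4 and 13.8 CPM, a log2 ratio of 0.31 (0.016 to 0.646). It was open in 5.07% (3.61 to 6.90) and 5.36% (3.64 to 7.56) of thinned cells. Without thinning it was open in 11.98% and 9.28% of cells. With open peaks scored as 1 its ratio was 0.29, so whether its share of open cells leaned to set 1 depended on the thinning.

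Cells differed in how many of the 10 promoters were open. In both sets the median thinned cell had 5 open (quartiles 4 and 6), with means of 4.91 and 4.78. None was open in 1 and 3 cells, and 8 or more were open in 52 cells of set 1 (6.94%) and 24 of set 2 (4.29%). The variance of this number was 1.23 and 1.14 times the sum expected of separate promoters. The number of open promoters moved with the depth of the cell before thinning, with Spearman's rho of 0.196 and 0.201 across cells. Cells below the lower quartile of depth had a mean of 4.40 and 4.29 open, and those above the upper quartile 5.32 and 5.19. When cells were instead thinned to 2321 open peaks each, the direction turned, with rho of -0.403 and -0.369.

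Co-accessibility between the genes was weak. Across thinned cells, the phi correlation of open or closed promoters had a median over the 45 pairs of 0.022 in set 1 and 0.017 in set 2, compared with 0.0044 and 0.0046 over all pairs of 6964 promoters open in at least 10% of cells, and 0.0079 and 0.0086 over pairs of 5000 bp or more. The lowest pair had -0.034 in set 1 and -0.080 in set 2, and the highest 0.107 and 0.091. In set 1, 9 of the 45 (20%) were above the 95th percentile of all promoter pairs, in set 2 only 1, and no pair was in both. Of the 45 pairs, 22 were above 0 in both sets, 3 were below 0 in both and 20 had opposite signs. Fos with Fosb (0.062 and 0.069) had the highest value of the lower set, followed by Fosb with Ier2 (0.069 and 0.059). Fosb with Jund had 0.107 in set 1 and 0.039 in set 2. Fosl2 with Klf6 had 0.039 and -0.080, which shows how far the same pair moved between sets. Without thinning, the medians rose to 0.151 and 0.199, when the number of open promoters followed depth with rho of 0.743 and 0.773. Correlations of this size in sparse counts are given as a description only.

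**Figure D5:**
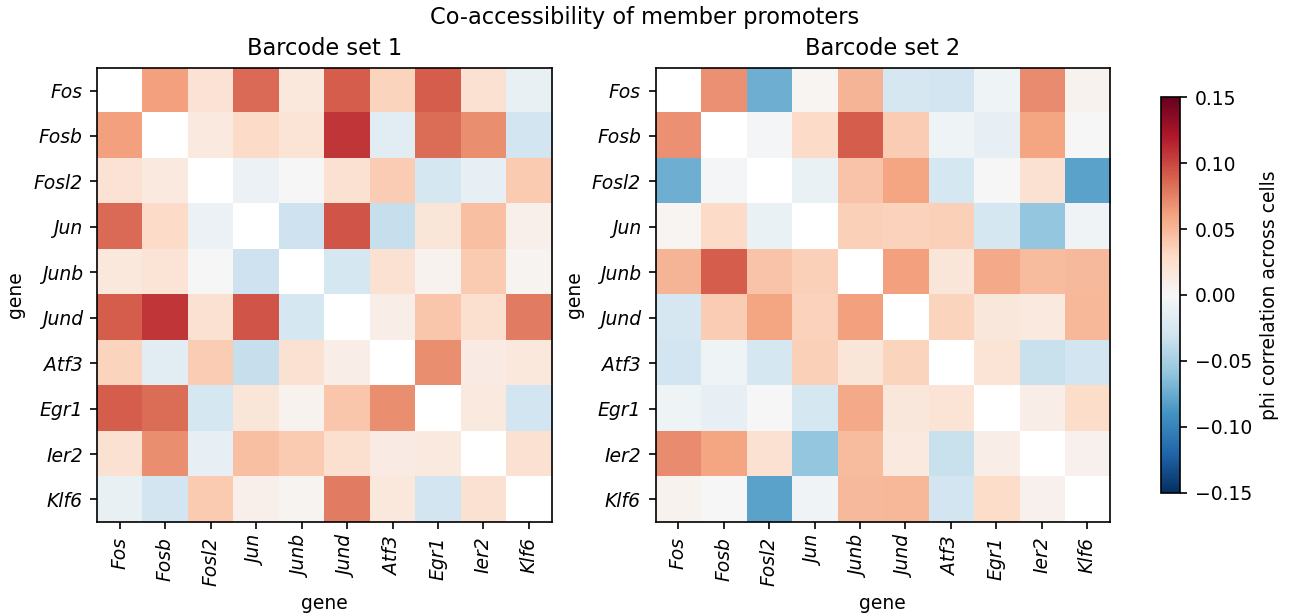
Phi correlation across thinned cells (colour, from -0.15 to 0.15) between the promoters of each pair of the 10 genes (both axes), in barcode set 1 (left, 749 cells) and set 2 (right, 560 cells). The diagonal is blank. Most values are close to 0 and the red pairs of set 1, such as Fosb with Jund (0.107), are mostly not the red pairs of set 2.

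The promoters outside these loci whose openness went most closely with the number of open member promoters were, by the lower correlation of both sets, Dusp1 (0.125 and 0.132), Denr (0.124 and 0.113), Jag1 (0.101 and 0.109), Bhlhe40 (0.099 and 0.129) and Mast3 (0.104 and 0.097). The median over 6954 promoters was 0.015 and 0.020 and the 95th percentile 0.074 and 0.089. Dusp1 encodes a phosphatase that switches off MAP kinases and is itself an immediate early gene. Its promoter peak was 10447 bp wide and open in 47.4% and 48.8% of cells. JAG1 is a Notch ligand and BHLHE40 a stress-induced repressor. A promoter was set beside the other peaks of its locus as a group, and these correlations were weak too. For the 4 members open widely enough to be set beside all 1663 such genes (Fosb, Junb, Atf3 and Egr1), the median phi was 0.022 and 0.058, compared with 0.019 and 0.017. The 95th percentile over the 1663 genes was 0.077 and 0.092. Fosb had 0.074 and 0.085, Egr1 0.010 and 0.089, Atf3 0.024 and 0.031, and Junb 0.020 and -0.021, so none passed it. The other peaks of Fosb were open in 28.7% of set 1 cells with an open promoter and in 22.1% of those without. In set 2 these shares were 34.0% and 26.03%. The number of open member promoters was weakly correlated with the share of a cell's counts in the 14872 peaks with an AP-1 word elsewhere in the genome (rho of 0.046 and 0.102). That share had a median of 26.3% and 25.95%, with quartiles of 25.7% and 27.0% in set 1.

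Other genes of the pathway were compared at the locus and at the promoter. Of 12 further AP-1 family genes and partners, such as Fosl1, Batf, Jdp2 and Mafk, none was past 1.5-fold at the locus (7.94% of all loci), with a median log2 ratio of 0.035. None was among 28 other immediate early genes (median -0.020), nor among 11 upstream regulators such as Srf and Creb1 (median -0.0060). At the promoter, 1 of the 12 was past 1.5-fold (11.3% of all promoter peaks), and 0 of 28 and 0 of 11. It was Batf2, which encodes an AP-1 partner of JUN proteins, with 14.3 and 7.94 CPM and a log2 ratio of 0.78, and Jdp2, a repressor of AP-1, was just inside with 42.4 and 63.7 CPM (-0.58). Both were named after their values were seen. The wide promoter peak was shared by part of these. Among the 28 immediate early genes, 25 had a promoter peak of 3000 bp or more (10.3% of all promoter peaks) and 14 had one of 5000 bp or more (1.95%), with a median width of 4971.5 bp. Zfp36, which encodes a protein that destabilizes inflammatory mRNAs, had the widest, at 12577 bp. Among the AP-1 family genes and partners, 3 of 12 reached 5000 bp (Atf4, Mafg and Mafk), and among the upstream regulators 0 of 11 did, with medians of 2374 and 2510 bp.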

How the data were processed

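The authors sorted LT-HSCs, prepared libraries with the 10x Genomics single-cell ATAC kit and processed the reads with Cell Ranger ATAC 1.2.0 against mm10 (GRCm38), per the labels' processing notes. They deposited raw counts of Tn5 cuts per peak and cell barcode, with no normalization. A second deposited table was not used here, because its rows carry no peak names. All 1454 cells and 93513 peaks were kept, and no doublet caller was run. Cells were split by barcode suffix only. CPM was computed on set totals, with exact Poisson intervals. Intervals of ratios came from the exact binomial split of counts. Ratios used a pseudocount of 1 CPM and at least 20 counts per feature. Genes and transcript starts were taken from GENCODE and sequences from RefSeq. For shares and correlations, counts of each cell were drawn without replacement down to 4899, the 10th percentile over cells. With 1 library per set, no test was run. Differences are descriptions of the sets. The members and lists were chosen with earlier results of these data known.

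Named were all 10 members with their promoter peaks; for each, the other peak with the most counts and any past 1.5-fold with at least 100 counts; related genes past 1.5-fold; and the 5 promoters most correlated with the number of open member promoters. The sum over B cell markers is not reported here. The calculations were tested on simulated data. Alternatives were scoring an open peak as 1, a median-of-ratios size factor, a pseudocount of 5 CPM, other count minimums, windows and depths, and leaving out the deepest cells. Python 3.11.15, numpy 2.4.6, scipy 1.17.1, pandas 2.3.3 and matplotlib 3.10.9 were used.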

Additional observations from a re-analysis of the deposited data

How the results depend on the processing

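No paired analysis was possible because each group has 1 sample and the barcode sets carry no replicate numbers. Scoring an open peak as 1 in each cell moved the log2 ratio of the summed loci to 0.00087 and of the summed promoters to 0.032, and turned the promoter ratios of Fosl2 and Jund to -0.015 and -0.0063. Leaving out the cells of over 3 times the median counts moved the summed loci to 0.109, the promoters to 0.134 and the other peaks to -0.035. The counts of members past 1.5-fold stayed at 0 for loci and promoters under the 6 alternatives tried and between 4 and 7 for other peaks. A pseudocount of 5 CPM lowered the share of all features past 1.5-fold to 4.03% for loci, 4.40% for promoter peaks and 11.9% for other peaks. Over promoter peaks of 5000 bp or more, a class chosen after the data were seen, it was 3.36%.

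The median share of cells with an open member promoter rose to 70.2% and 68.6% (sets 1 and 2) at 2 times the thinned depth and to 67.6% and 62.3% without thinning, and fell to 26.5% and 25.9% when cells were thinned to a fixed number of open peaks. Median phi was 0.151 and 0.199 without thinning. It was 0.020 and 0.033 at 2 times the thinned depth, and 0.031 and 0.012 with a fixed number of open peaks. The Spearman correlation of thinned counts had medians of 0.033 and 0.015. In the central 300 bases of the 10 promoter peaks, AP-1, CRE, CArG, EGR and ETS words were found in 0 and the PU.1 word in 1, so the counts of words depend on peak width. Of 140 recomputed values for single genes and peaks, 119 stayed within their counting interval. Of all 140, 9 changed sign: 2 (Fosl2 and Jund promoters) had an interval apart from 0, and 7 had one that included it. The peak values were added after the data were seen. Junb and Ier2 have a single other peak each, so its values are counted both for the gene and for the peak. The change of sign at the Junb peak with open peaks scored as 1 is therefore counted both ways.

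The main limits are the missing link from barcode set to sample, the absence of replicates, and the width of the promoter peaks, within which the table places no count.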
